A study of Homo sapiens with 4 samples.

Results

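The genes described here were the heat shock protein genes of the HSPA, HSPB, HSPD, HSPE, HSPH and HSP90 families together with the DNAJ genes, whose products are cochaperones of HSP70. They were chosen by name from the array design, with antisense names left out. The names also took in pseudogenes such as DNAJA1P5 and HSP90AA2P, and HSPBP1 and HSPBAP1, which are not small heat shock proteins. The array carried 78 such genes on 111 probes. Of these genes 60 were well above background on at least 1 array, as were 17382 of all 43311 gene names on the array. RNA came from MDS-L cells, a line established from a myelodysplastic syndrome, and from MDS-L/CDA cells, an AZA-resistant derivative made by transducing CDA. Each line was cultured with interleukin-3 and exposed for 72 h to vehicle (0.1% DMSO) or to 1 μM 5-azacytidine (AZA), a cytidine analog that enters nucleic acids and lowers DNA methylation. The 4 conditions are called MDS-L vehicle, MDS-L AZA, MDS-L/CDA vehicle and MDS-L/CDA AZA. Whether MDS-L/CDA cells were a clone or a pool was not given in the sources used here. There was 1 array per condition, so the differences below have no replicate check and carry neither a test nor an error.

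Heat shock proteins are chaperones that bind unfolded or newly made polypeptides. HSP70 proteins act in cycles of ATP hydrolysis, which DNAJ proteins stimulate through their J domain and nucleotide exchange factors complete. HSP90 proteins finish the folding of kinases and steroid receptors, small heat shock proteins hold clients in a foldable state, and HSPD1 with HSPE1 forms the folding chamber of mitochondria. The inducible genes among them are switched on by the transcription factor HSF1, which binds heat shock elements made of inverted GAA units.

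The labels of these samples did not agree in every field. The title, description and source name gave the treatments used here, while the treatment field named vehicle for the MDS-L AZA array and AZA for the MDS-L/CDA vehicle array, and some fields wrote the dose as 1 mM. No array had the CDA probe well above background, so these signals do not tell the lines apart by the transduced gene. Myeloid and progenitor markers were present, with 7 of 8 well above background on all 4 arrays, and the exception was MPO. None of 5 fibroblast markers was detected on any array, whereas 3 of 5 B cell markers and 2 of 5 epithelial markers were well above background on all 4 arrays, and of 4 T cell markers CD3D reached that level, only on the MDS-L AZA array, with CD3E, CD3G and CD8A at background throughout. The summed signal of the T cell markers was 4.84 on that array and 0.283 to 0.431 on the others, that of the B cell markers 15.7 to 21.2 and that of the epithelial markers 6.73 to 9.75. The part of these markers in the results below was not tested. Signals are given as multiples of the 75th percentile of their own array, and the lowest signal well above background lay between 0.190 and 0.296 on that scale. Where 4 values follow a gene without further names, they stand in the order MDS-L vehicle, MDS-L AZA, MDS-L/CDA vehicle and MDS-L/CDA AZA. The spots that repeat a probe on the same array had a standard deviation of 0.19 to 0.30 on the log2 scale, which covers the spread within an array but not that between cultures.

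The sequences upstream of 5 HSP70 genes are shown because they include the gene with the largest AZA ratio among members measured on both arrays of a pair (HSPA2), the near copies HSPA1A and HSPA1B, whose signals differed, and a strictly inducible and a constitutive form (HSPA6 and HSPA8). The 250 bases before the transcription start are given for HSPA1A (chr6:31815293-31815542, plus strand), HSPA1B (chr6:31827488-31827737, plus strand), HSPA2 (chr14:64540491-64540740, plus strand), HSPA6 (chr1:161524290-161524539, plus strand) and HSPA8 (chr11:123062137-123062386, minus strand), from RefSeq on GRCh38.p14, written 5′ to 3′. Capitals mark matches to a heat shock element of 2 units (GAANNTTC or TTCNNGAA) or 3 units (GAANNTTCNNGAA or TTCNNGAANNTTC), searched on both strands. A 3-unit match always holds 2-unit matches.
HSPA1A: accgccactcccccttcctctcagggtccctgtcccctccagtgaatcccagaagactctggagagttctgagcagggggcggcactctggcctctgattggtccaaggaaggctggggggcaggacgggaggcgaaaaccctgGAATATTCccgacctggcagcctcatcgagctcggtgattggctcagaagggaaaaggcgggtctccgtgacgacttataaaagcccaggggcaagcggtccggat
HSPA1B: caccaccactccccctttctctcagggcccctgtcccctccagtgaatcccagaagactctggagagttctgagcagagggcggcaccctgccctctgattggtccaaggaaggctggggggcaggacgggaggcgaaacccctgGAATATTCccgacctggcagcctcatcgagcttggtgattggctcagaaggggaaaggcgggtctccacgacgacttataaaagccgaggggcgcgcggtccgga
HSPA2: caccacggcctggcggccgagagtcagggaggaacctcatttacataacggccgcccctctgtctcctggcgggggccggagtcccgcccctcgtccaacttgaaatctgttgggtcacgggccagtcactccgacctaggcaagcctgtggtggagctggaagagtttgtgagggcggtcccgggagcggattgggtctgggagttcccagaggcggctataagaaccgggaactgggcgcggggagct
HSPA6: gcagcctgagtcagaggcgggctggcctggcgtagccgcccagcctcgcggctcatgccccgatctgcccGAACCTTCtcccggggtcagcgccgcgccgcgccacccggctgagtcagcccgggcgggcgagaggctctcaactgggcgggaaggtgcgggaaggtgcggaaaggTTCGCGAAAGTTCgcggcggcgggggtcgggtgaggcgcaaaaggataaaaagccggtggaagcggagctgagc
HSPA8: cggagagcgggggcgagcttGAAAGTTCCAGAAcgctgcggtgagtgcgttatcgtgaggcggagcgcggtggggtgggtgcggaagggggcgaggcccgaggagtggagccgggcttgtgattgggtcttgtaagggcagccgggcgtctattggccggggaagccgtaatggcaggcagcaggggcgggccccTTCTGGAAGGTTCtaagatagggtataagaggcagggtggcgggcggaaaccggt

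HSPA1A and HSPA1B, neighbours on chromosome 6 that encode almost the same inducible HSP70, were identical at 235 of 249 aligned upstream bases (94.4%). Each held a single 2-unit match, 106 bases before the start in HSPA1A and 105 in HSPA1B. HSPA6, the most strictly inducible HSP70 gene, had 1 match of 3 units, and HSPA8, the constitutive cytosolic HSP70, had 2. HSPA2, an HSP70 known for its role in male germ cells, had no match in this window. Its 250 bases held 18 CpG dinucleotides, near the family median of 19. Across the family, 66 genes had a RefSeq window, 87 windows in all because some genes have several starts. A 3-unit match occurred in 6.90% of these windows, against 0.441% of 35116 windows of all genes, and a 2-unit match in 23.0% against 11.6%. The genes with a 3-unit match were DNAJB6, HSP90AA1, HSP90AB1, HSPA6, HSPA8 and HSPD1. The median window of the family held 19 CpG dinucleotides, against 11 over all genes. These matches and CpG counts describe letters in a window, and neither binding of HSF1 nor DNA methylation was measured on these arrays.

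In MDS-L cells HSPA2 rose 7.28-fold with AZA, and HSPA1A was at least 9.18-fold higher with AZA than with vehicle. DNAJB2, DNAJB4 and DNAJC24 also rose, DNAJA2 fell, and HSPA8, HSPA1B, HSPD1 and the HSP90 genes stayed within 2-fold. On the MDS-L arrays 55 members could be compared, both signals being well above background. Of these, 4 (HSPA2, DNAJB2, DNAJB4 and DNAJC24) reached 2-fold higher with AZA and 1 (DNAJA2) reached 2-fold lower, where the same rule called 4.44% of 15104 genes higher and 5.9% lower. The median log2 ratio of the members was -0.19, beside -0.16 for all genes, and 34 of the 55 had a ratio below 1, as did 9412 of the 15104 genes. At 1.5-fold, 5 members were higher and 9 lower, beside 10.3% and 18.3% of all genes. These counts depend on the scaling. With each array scaled to its median 1 member (HSPA2) was called higher and 16 lower, beside 288 and 3892 of the 15104 genes. The median of all genes then moved to -0.70 and that of the members to -0.73. A single factor per array cannot move the members against all genes. The members' median lay 0.03 below that of all genes on the log2 scale as reported, 0.10 below with the mean of the probes of a gene, and 0.04 above with quantile normalization and in the authors' value table. RNA was taken from whole cultures, so a change in the share of cells with a transcript and a change in RNA per cell cannot be told apart.

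In MDS-L/CDA cells DNAJC14 fell with AZA, no member measured on both arrays reached 2-fold higher, and DNAJB4 was at least 2.22-fold higher against a vehicle signal that was not well above background. Of 52 members, 0 were at least 2-fold higher and 1 was at least 2-fold lower, where the same rule called 2% of 14137 genes higher and 2.83% lower. The median log2 ratio of the members was -0.01, beside 0.01 for all genes. At the lower threshold of 1.5-fold, 4 members (DNAJA1, DNAJB2, DNAJC6 and HSPA2) were higher and 5 (DNAJB14, DNAJC11, DNAJC14, HSP90B1 and HSPH1) were lower, beside 7.9% and 8.99% of all genes. Dimmer probes of DNAJB2, DNAJC11, HSP90B1 and HSPH1 did not reach 1.5-fold there, with log2 ratios of 0.00, -0.10, -0.20 and -0.16.

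**Figure D1:**
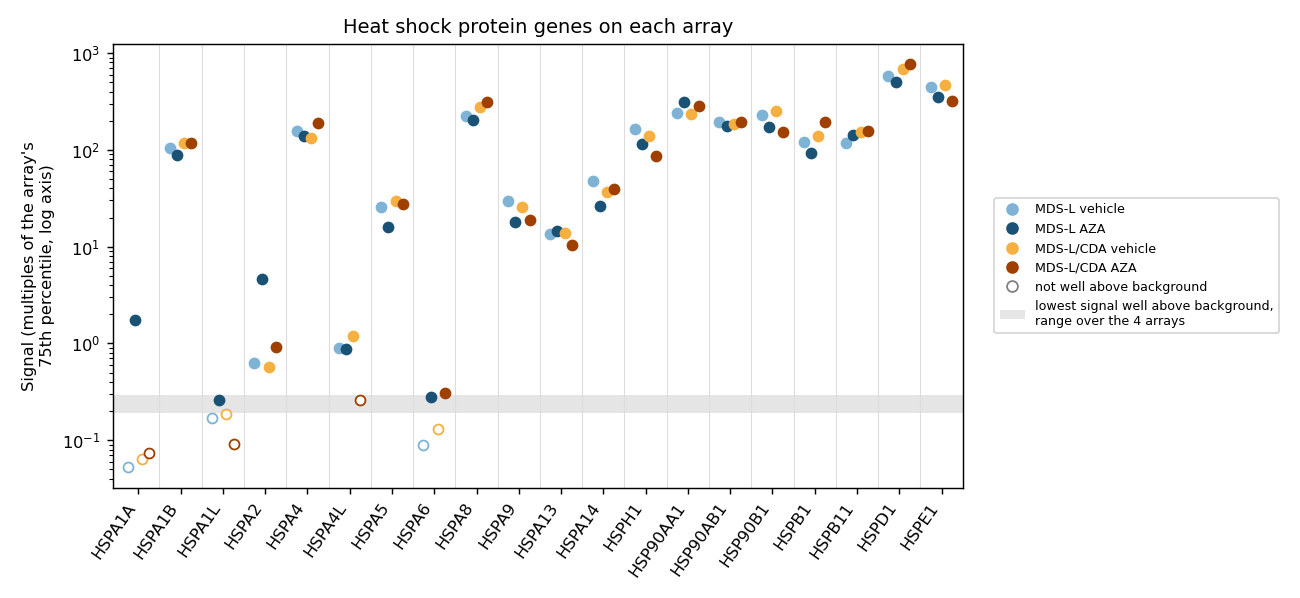
Signal of 20 heat shock protein genes on the 4 arrays, in multiples of the 75th percentile of the array on a log axis. Each point is 1 array, open points were not well above background, and the grey band spans the lowest signal well above background on the arrays. HSPA1A stood at 1.74 on the MDS-L AZA array and below the band on the others, HSPA2 at 4.59 against 0.567 to 0.926, while HSPA8, HSP90AB1 and HSPD1 stayed within 2-fold over the arrays.

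Among the cytosolic HSP70 genes, HSPA2 was read by a probe at 65009538 to 65009597 of chromosome 14 (hg19). Its signal was 0.631 with vehicle and 4.59 with AZA in MDS-L cells and 0.567 and 0.926 in MDS-L/CDA cells. Thus MDS-L AZA stood apart from the other 3 arrays, and the log2 ratio with AZA was 2.86 in MDS-L and 0.71 in MDS-L/CDA cells. HSPA1A (chromosome 6, 31785491 to 31785550) had 0.0523, 1.74, 0.0637 and 0.0739 on the same arrays in that order, and only the MDS-L AZA signal was well above background. Its 9.18-fold is a lower bound, taken against the lowest signal well above background on the MDS-L vehicle array. A bound of at least 2-fold in this direction was found for 23.5% of the 2068 genes that were well above background on only 1 of the 2 MDS-L arrays. HSPA1A, like HSPA1L, DNAJA4 and DNAJC25, entered the set through the 1 array on which it was well above background, so these genes are not counted among the calls. Of the 7 scalings and background corrections compared, the bound was lowest, 2.26-fold, with normexp and an offset of 50, which compresses ratios of dim probes, and lay between 6.31-fold and 10.1-fold with the others.

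HSPA1B (chromosome 6, 31797870 to 31797929), the near copy of HSPA1A, showed no such contrast. Its signal was 105 with vehicle and 87.7 with AZA in MDS-L cells and 119 and 118 in MDS-L/CDA cells, and the log2 ratio with AZA was -0.26 in MDS-L and -0.01 in MDS-L/CDA cells. All 4 arrays were therefore within 2-fold of each other. The probes of the 2 genes are 60 bases long and share no run longer than 7 bases. They were compared only with each other and not with the transcript of the other gene. Whether each reads only its own gene was therefore not tested. HSPA1L, a germ cell gene beside them, was well above background only on the MDS-L AZA array (0.262, against 0.169, 0.186 and 0.0907), at least 1.38-fold above MDS-L vehicle.

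HSPA6 (chromosome 1, 161577785 to 161577844) was dim on every array, with 0.0895 with vehicle and 0.279 with AZA in MDS-L cells and 0.129 and 0.304 in MDS-L/CDA cells. It was well above background on both AZA arrays and on neither vehicle array, which gives lower bounds of 1.47-fold and 1.12-fold. HSPA6 thus entered the set through the AZA arrays alone. In MDS-L/CDA AZA its 0.304 was close to the weakest signal that passed there (0.296). The other HSPA6 probe gave 0.0466, 0.123, 0.0627 and 0.0985 in the usual order and passed on none of the arrays. The pattern therefore rests on 1 dim probe. In hg19 the probes named HSPA6 lie between those of FCGR2C and FCGR2B, where the RefSeq gene order places HSPA7, a transcribed pseudogene, so its signal cannot be told apart between HSPA6 and HSPA7. HSPA8, the most abundant cytosolic HSP70 in most cells, had 226, 205, 277 and 311 in the same order, with log2 ratios of -0.14 and 0.16 with AZA. HSPA13, of the microsomes, had 13.4, 14.5, 13.7 and 10.5. HSPA14, which works at the ribosome, had 48.1, 26.5, 36.4 and 39.0, and its log2 ratio of -0.86 in MDS-L was the lowest of the 10 measured genes on the HSP70 list. That list had 1 called increase (HSPA2) and 0 decreases in MDS-L, with a median of -0.22, and 0 of either among 9 genes in MDS-L/CDA, with a median of -0.01. The medians of all genes were -0.16 and 0.01, and 4.44% of them were called higher and 5.9% lower in MDS-L and 2% and 2.83% in MDS-L/CDA.

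The HSP110 proteins are large relatives of HSP70 that act as its nucleotide exchange factors. HSPH1 had 164 with vehicle and 114 with AZA in MDS-L cells and 138 and 87.2 in MDS-L/CDA cells, with log2 ratios of -0.52 and -0.66. Its dimmer probe gave -0.85 and -0.16. On both probes HSPH1 was lower with AZA in both lines, without reaching 2-fold, but the line with the larger fall differed. HSPA4 had 158, 139, 131 and 190 in that order, with log2 ratios of -0.18 and 0.54, while its dimmer probe gave -0.55 and -0.42, so the sign in MDS-L/CDA depended on the probe. HSPA4L (chromosome 4, 128754250 to 128754309) had 0.893, 0.881, 1.21 and 0.261, and the last was not well above background. Its signal was therefore at least 4.08-fold lower with AZA than with vehicle in MDS-L/CDA, a direction in which 5.73% of the 1256 genes measured on only 1 array of that pair had a bound of at least 2-fold, while in MDS-L its log2 ratio was -0.02. With normexp the bound was 1.56-fold.

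The HSP90 genes were bright on all arrays. HSP90AB1, the constitutive cytosolic form, had 195, 176, 183 and 194 in the order MDS-L vehicle, MDS-L AZA, MDS-L/CDA vehicle and MDS-L/CDA AZA, while a dimmer probe gave a log2 ratio of -1.13 in MDS-L. HSP90AA1, the inducible form, had 241, 314, 233 and 287, with log2 ratios of 0.38 and 0.30 with AZA. This direction rests on the brightest of its 3 probes, since another bright probe gave 188, 116, 167 and 175 and a log2 ratio of -0.69 in MDS-L. HSP90B1, the form of the endoplasmic reticulum, had 228, 172, 252 and 153, with log2 ratios of -0.41 and -0.72. Its dimmer probe gave -0.87 and -0.20. None of the 3 HSP90 genes was called in either line on its main probe. Over all genes 4.44% were called higher and 5.9% lower in MDS-L, and 2% and 2.83% in MDS-L/CDA.

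Of 8 small heat shock protein genes 2 were detected, and HSPB2, HSPB3, HSPB6, HSPB7, HSPB8 and HSPB9 were not well above background on any array. HSPB1, or HSP27, had 120, 93.0, 140 and 196 on the 4 arrays in the same order, with log2 ratios of -0.37 in MDS-L and 0.48 in MDS-L/CDA. The sign differed between the lines and neither ratio reached 2-fold, and its other probes gave -0.54 and -0.07, and -0.40 and 0.48. HSPB11, which works in intraflagellar transport, had 117, 143, 153 and 158, within 2-fold throughout.

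In the endoplasmic reticulum 0 of 11 measured chaperone genes were called in either AZA pair, and the median log2 ratio was 0.08 for MDS-L and -0.32 for MDS-L/CDA cells. Over all genes 4.44% were called higher and 5.9% lower in MDS-L, at a median of -0.16. In MDS-L/CDA these shares were 2% and 2.83%, at a median of 0.01. HSPA5, or BiP, the central HSP70 of this compartment, had 25.9 with vehicle and 15.8 with AZA in MDS-L cells and 29.6 and 27.4 in MDS-L/CDA cells. The MDS-L AZA array was the lowest, at a log2 ratio of -0.71, against -0.11 in MDS-L/CDA. DNAJB9, a target of the unfolded protein response, had 23.8, 26.2, 30.1 and 43.8, and its highest signal was in MDS-L/CDA AZA. DNAJC1, which brings HSPA5 to the translocon, had 18.4, 9.73, 26.0 and 18.1, with log2 ratios of -0.92 and -0.52, and its dimmer probe gave -1.30 and 0.38. DNAJC25, a membrane J protein, was well above background only in MDS-L vehicle (0.453, against 0.0512, 0.0717 and 0.0778), at least 2.38-fold above MDS-L AZA, a direction in which 7.01% of the 2068 genes had such a bound. With normexp it was 1.25-fold.

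Of 7 measured mitochondrial chaperones, 6 had a ratio below 1 with AZA in MDS-L (median log2 ratio -0.32), where 9412 of 15104 genes did, and 5 in MDS-L/CDA (median -0.46), where 6860 of 14137 genes did. None reached 2-fold on its main probe, and the shares called over all genes were those given above for the endoplasmic reticulum. However, dimmer probes gave log2 ratios of -1.37 for DNAJC11 in MDS-L and -1.18 for DNAJC30 in MDS-L/CDA. HSPD1, the chaperonin, had 579, 508, 682 and 769 in the same order, within 2-fold throughout. HSPE1, its cochaperonin, had 443, 355, 465 and 319, with log2 ratios of -0.32 and -0.55, while its other probe gave -0.69 and 0.08. HSPA9, the mitochondrial HSP70, had 29.5, 18.1, 25.9 and 18.8, with log2 ratios of -0.71 and -0.47. DNAJC11, of the inner membrane organising complex, had 18.9, 12.7, 24.6 and 15.9, with -0.57 and -0.63. Its dimmer probe gave -0.10 in MDS-L/CDA.

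**Figure D2:**
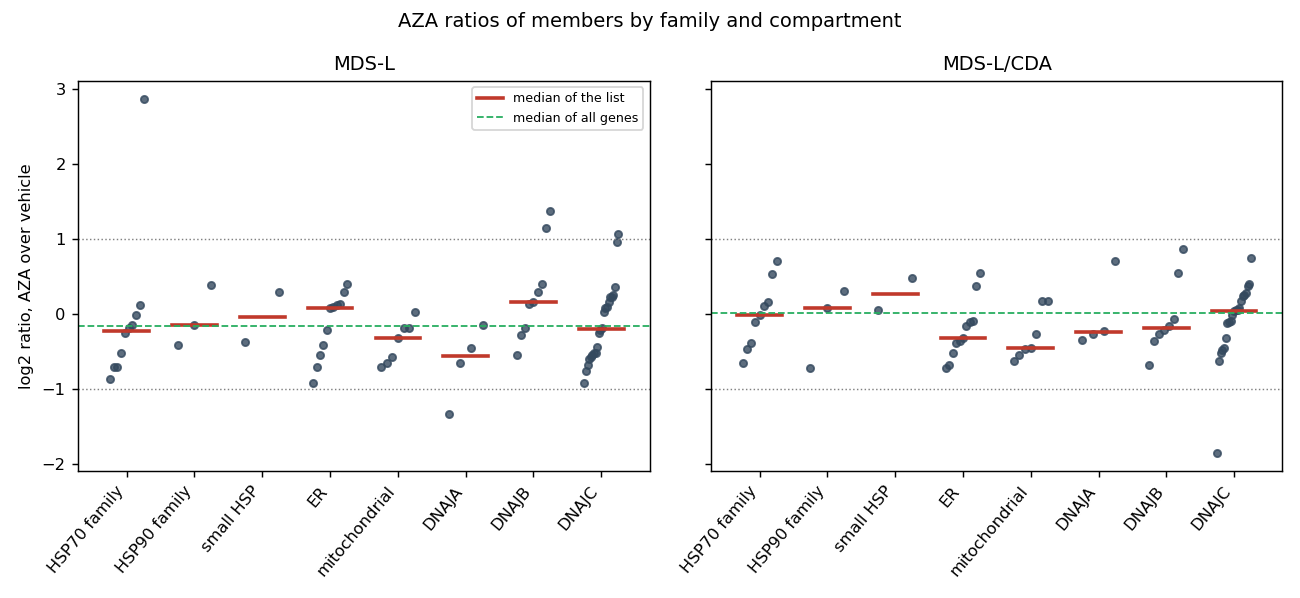
Log2 ratio of AZA over vehicle in MDS-L (left) and MDS-L/CDA cells (right) for members well above background on both arrays, grouped by family or compartment. Points are genes, a gene may stand in a compartment and in a family, red bars are medians of the group, the dashed line is the median of all genes and dotted lines mark 2-fold. In MDS-L the DNAJB median of 0.16 (9 genes) and the DNAJA median of -0.56 (4 genes, including the pseudogene DNAJA1P5) lay on either side of the median of all genes.

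The DNAJ genes are the larger part of the set, with 37 of 46 detected. Of the DNAJA genes, whose products are the closest relatives of bacterial DnaJ, DNAJA2 (chromosome 16, 46989293 to 46989352) had 1.74 with vehicle and 0.691 with AZA in MDS-L cells and 1.40 and 1.1 in MDS-L/CDA cells. It fell 2.51-fold in MDS-L, and its log2 ratio in MDS-L/CDA was -0.35. With normexp its log2 ratio in MDS-L was -0.64, under 2-fold. DNAJA1, an abundant cytosolic member, had 28.0, 25.2, 21.5 and 34.9, with log2 ratios of -0.15 and 0.70. DNAJA4 was well above background only in MDS-L AZA (0.346, against 0.0455, 0.0806 and 0.0831), which gives at least 1.82-fold over MDS-L vehicle.

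Among the DNAJB genes, DNAJB2 (chromosome 2, 220151526 to 220151585), which passes HSP70 clients to the proteasome, had 18.1 with vehicle and 46.6 with AZA in MDS-L cells and 17.2 and 31.2 in MDS-L/CDA cells. Both AZA arrays exceeded both vehicle arrays, with a 2.58-fold increase in MDS-L and a ratio of 1.81 in MDS-L/CDA. Its second, dimmer probe had 0.464, 1.11, 0.541 and 0.541, a log2 ratio of 1.26 in MDS-L and 0.00 in MDS-L/CDA, so the probes differed on MDS-L/CDA cells. DNAJB4 (chromosome 1, 78482033 to 78482092), a stress-inducible cytosolic member, had 0.452, 0.999, 0.295 and 0.655, and the MDS-L/CDA vehicle signal was not well above background. It rose 2.21-fold in MDS-L and was at least 2.22-fold higher in MDS-L/CDA, where 8.44% of the 1256 genes measured on only 1 array of the pair had a bound of at least 2-fold in this direction. Both values for DNAJB4 fell below 2-fold with normexp, to a log2 ratio of 0.52 in MDS-L and a bound of 1.24-fold in MDS-L/CDA. Its increase in MDS-L was also not called with scaling to the median, with the Z score or at a signal of at least 100.

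DNAJB1, or HSP40, a classical HSF1 target and partner of HSPA1A in the heat shock response, had 11, 12.4, 14.5 and 12, with log2 ratios of 0.16 and -0.27. Its 4 signals lay close together. Of the list of inducible cytosolic chaperones, in MDS-L 1 of 11 measured genes (DNAJB4) was called higher and 0 lower at a median of -0.15, besides the bound for HSPA1A. In MDS-L/CDA 0 of 10 were called at a median of 0.12, besides the bound for DNAJB4, and the shares called over all genes were those given above. DNAJB14, a membrane protein of the endoplasmic reticulum, had 4.31, 5.27, 5.56 and 3.47, and its log2 ratios of 0.29 and -0.68 had opposite signs.

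Of the DNAJC genes, which share only the J domain, DNAJC24 (chromosome 11, 31454021 to 31454080), a factor of diphthamide synthesis, had 0.482 with vehicle and 1.01 with AZA in MDS-L cells and 0.386 and 0.4 in MDS-L/CDA cells. It rose 2.10-fold in MDS-L, and its log2 ratio in MDS-L/CDA was 0.05. The increase fell under 2-fold with normexp (log2 ratio 0.47) and with scaling to the median (0.53), and it did not pass the Z score or a signal of at least 100. DNAJC14 (chromosome 12, 56214922 to 56214981), which acts in the export of receptors from the endoplasmic reticulum, had 6.49, 3.83, 6.04 and 1.67, and it fell 3.61-fold in MDS-L/CDA at a log2 ratio of -0.76 in MDS-L. Both AZA arrays were below both vehicle arrays. DNAJC6, or auxilin, which uncoats clathrin vesicles, had 43.9, 30.7, 32.2 and 53.7, with log2 ratios of -0.52 and 0.74. DNAJC2, the ribosomal partner of HSPA14, had its lowest signal in MDS-L AZA (41.1, at a log2 ratio of -0.55 with AZA) and 78.8 and 77.8 in MDS-L/CDA cells. DNAJC28 was well above background only on the MDS-L arrays (0.245 with vehicle and 0.475 with AZA), at a log2 ratio of 0.95. In MDS-L/CDA cells it had 0.282 with vehicle and 0.202 with AZA. Its background status therefore does not show a lower signal in MDS-L/CDA vehicle than in MDS-L vehicle. In the DNAJC family 1 of 22 measured genes was called higher and 0 lower in MDS-L, and 0 of 21 were called higher and 1 lower in MDS-L/CDA, beside the 4.44% and 5.9%, and 2% and 2.83%, of all genes.

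**Figure D3:**
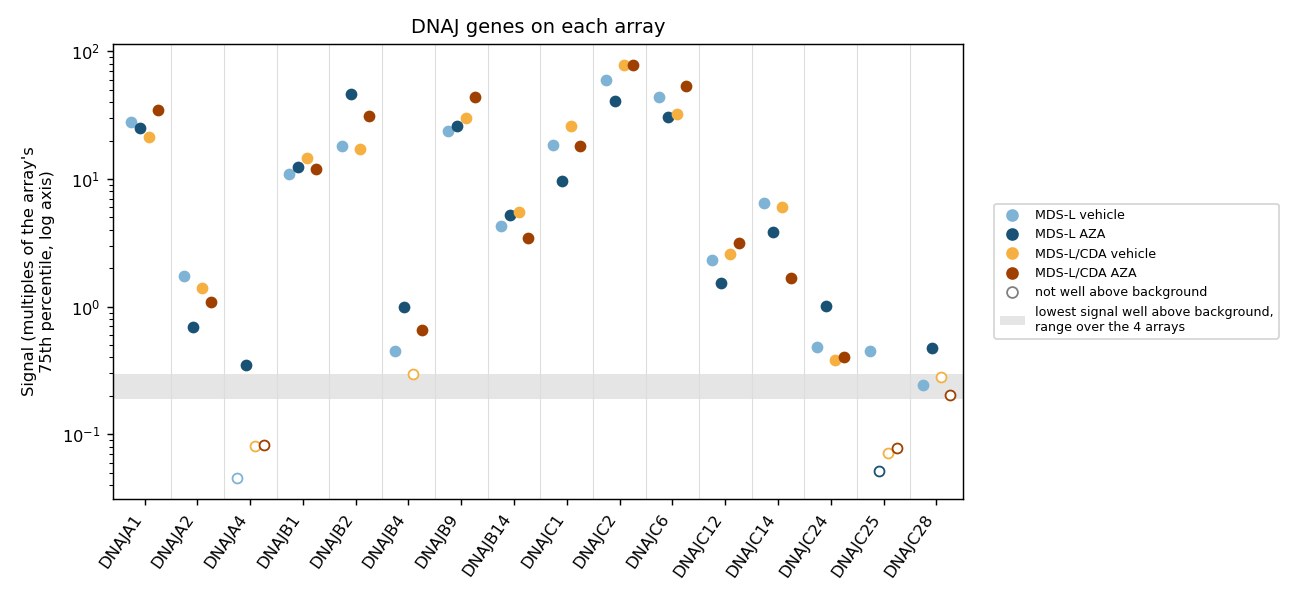
Signal of 16 DNAJ genes on the 4 arrays, in multiples of the 75th percentile of the array on a log axis. Each point is 1 array, open points were not well above background, and the grey band spans the lowest signal well above background on the arrays. DNAJB2 was higher on both AZA arrays (46.6 and 31.2) than on both vehicle arrays (18.1 and 17.2), and DNAJC14 was lowest in MDS-L/CDA AZA (1.67).

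With vehicle the main probes of this family differed by less than 2-fold between the lines. Of 53 members well above background on both vehicle arrays, 0 were at least 2-fold higher and 0 at least 2-fold lower in MDS-L/CDA than in MDS-L, where the same rule called 1.59% of 14510 genes higher and 2.17% lower. On main probes the log2 ratios ran from -0.50 (DNAJB5) to 0.50 (DNAJC1), and at 1.5-fold the count was also 0 in each direction, beside 7.38% and 6.88% of all genes. Nor did any of the 3 members measured on only 1 vehicle array (DNAJB4, DNAJC25 and DNAJC28) have a bound of 2-fold, which 5.71% of 1505 such genes had upwards and 7.18% downwards. The median was 0.10, beside 0.09 for all genes. Dimmer probes went further: that of DNAJC1 gave a log2 ratio of -1.18, opposite in sign to its main probe, and that of HSP90AB1 was lower in MDS-L/CDA by 2-fold.

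Under AZA 5 members reached 2-fold between the lines. Of 54 members measured on both AZA arrays, HSPB1 and DNAJC12 were at least 2-fold higher in MDS-L/CDA than in MDS-L, and HSPA2, DNAJC14 and DNAJC24 were at least 2-fold lower, where the same rule called 5.32% of 14542 genes higher and 3.91% lower. The median log2 ratio was 0.24, beside 0.23 for all genes. This comparison uses the same arrays as the AZA ratios above and is no independent view of them. HSPA2 was 4.96-fold lower, DNAJC24 2.53-fold lower and DNAJC14 2.29-fold lower in MDS-L/CDA. HSPA1A was at least 5.90-fold lower and HSPA4L at least 2.98-fold lower, and 14% of the 2197 genes measured on only 1 AZA array had such a bound, while 6.19% had one upwards, which no member did. With normexp these bounds were 1.92-fold for HSPA1A and 1.36-fold for HSPA4L. At 1.5-fold, 12 members were higher and 5 lower in MDS-L/CDA, beside 21.5% and 9.08% of all genes. Both higher calls lay at the threshold. HSPB1 was 2.10-fold higher on its main probe, but its other probes gave log2 ratios of 0.23 and 1.62 against 1.07, and DNAJC12, a cochaperone of the aromatic amino acid hydroxylases, had 2.31, 1.53, 2.58 and 3.14 on the 4 arrays and was 2.05-fold higher. Neither was called with quantile normalization, with no scaling, with scaling to spike-in probes, with normexp or in the authors' value table.

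**Figure D4:**
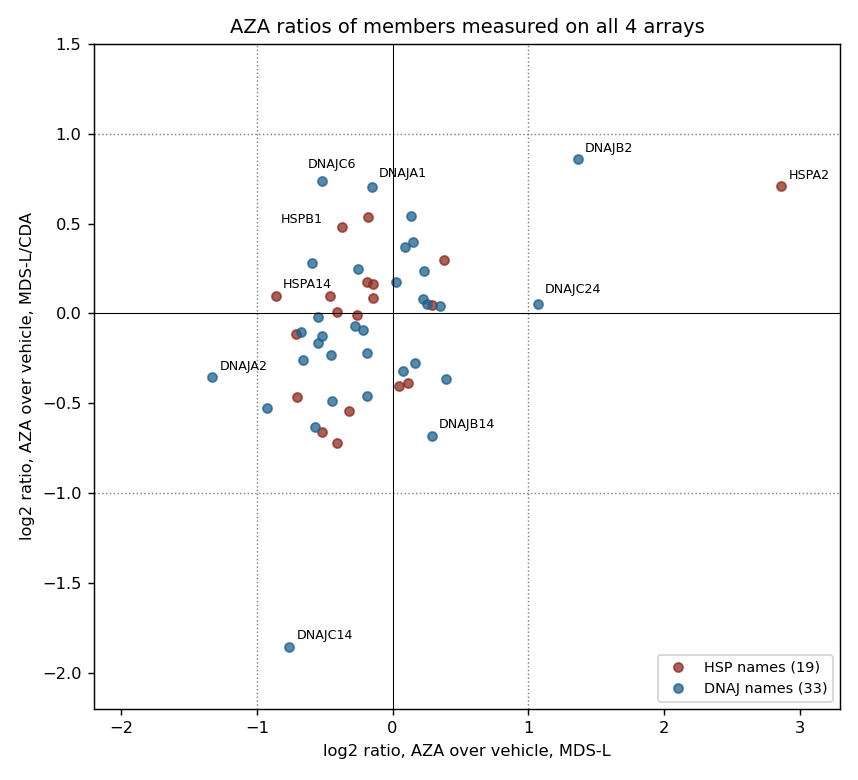
Log2 ratio of AZA over vehicle in MDS-L (horizontal axis) against MDS-L/CDA cells (vertical axis) for the 52 members well above background on all 4 arrays. Each point is a gene, solid lines mark no difference and dotted lines mark 2-fold. HSPA2 lay farthest right (2.86 and 0.71) and DNAJC14 lowest (-0.76 and -1.85), and most members lay inside the dotted square.

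The response to AZA was then set side by side between the lines for the 52 members well above background on all 4 arrays. AZA ratios were above 1 in both lines for 13 members and below 1 in both for 21. They were below 1 in MDS-L and above 1 in MDS-L/CDA for 12, and the reverse for 6. The ratio in MDS-L exceeded that in MDS-L/CDA at least 2-fold for 3 members (HSPA2, DNAJC14 and DNAJC24) and was at least 2-fold smaller for 1 (DNAJC6), where 3.9% and 6.15% of 13962 genes did so. The difference of the log2 ratios was 2.16 for HSPA2, 1.09 for DNAJC14, 1.02 for DNAJC24 and -1.26 for DNAJC6. The median difference was -0.22, beside -0.15 for all genes. This contrast of the lines has no test, since each arm is 1 array.

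The other genes of the pathway were taken from lists of regulators, HSP70 exchange factors, HSP90 cochaperones, cytosolic chaperonin subunits and further chaperones. In MDS-L 1 of their 42 measured genes was at least 2-fold higher with AZA and 6 were at least 2-fold lower, with a median of -0.29, and in MDS-L/CDA 0 of 41 were higher and 1 was lower, with a median of -0.01. Over all genes 4.44% were higher and 5.9% lower at a median of -0.16 in MDS-L, and 2% and 2.83% at a median of 0.01 in MDS-L/CDA. HSF1, the master regulator, had 319 with vehicle and 273 with AZA in MDS-L cells and 309 and 291 in MDS-L/CDA cells. BAG3, an HSF1 target that links HSP70 to autophagy, had 0.954, 1.13, 1.12 and 0.776, so neither gene was called. The increase in MDS-L was SERPINH1, a collagen chaperone, with 4.28, 10.6, 3.02 and 3.23 and a log2 ratio of 1.31. The lower genes in MDS-L were PTGES3 (log2 ratio -2.40), FKBP4 (-1.01) and FKBP5 (-1.03), cochaperones of HSP90, and BAG2 (-1.01), BAG4 (-1.86) and BAG5 (-1.04), which bind HSP70. The calls of FKBP4, FKBP5, BAG2 and BAG5 lay at the 2-fold threshold. BAG4 dropped to 0.251 on the MDS-L AZA array, where measured signals began at 0.190. The alternatives reported below cover members and not these genes, so the count of lower pathway genes has no such check. PTGES3, or p23, had 2.29, 0.433, 2.03 and 1.28, and its lowest signal was on the MDS-L AZA array. The lower gene in MDS-L/CDA was CHORDC1, an HSP90 partner, with a log2 ratio of -1.36. CCT5, a chaperonin subunit, was well above background only in MDS-L vehicle (0.712, against 0.139, 0.0838 and 0.105). It was at least 3.74-fold above MDS-L AZA, a direction in which 7.01% of 2068 genes had a bound of at least 2-fold. The other subunits listed were well above background on all 4 arrays, the dimmest, TCP1, at 22.0 to 41.3. Whether the CCT5 probe reports its transcript was not tested.

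Several members had more than 1 probe, which gives a check within each array. In MDS-L, 16 of 18 members with at least 2 measured probes had AZA ratios of the same sign on all of them, and in MDS-L/CDA 10 of 17 did. The probes of a gene differed by a median of 0.41 in MDS-L and 0.52 in MDS-L/CDA on the log2 scale, and by over 1 for HSP90AA1 and DNAJC30 in MDS-L and for DNAJC30 in MDS-L/CDA. HSPA2, HSPA1A, DNAJA2, DNAJB4 and DNAJC24 had 1 probe each, and the second probe of DNAJC14 stayed near background on all 4 arrays. The genes that were not detected included the cochaperones DNAJB3, DNAJB7, DNAJB8, DNAJB13, DNAJC5B, DNAJC5G, DNAJC15, DNAJC18 and DNAJC22, the HSP70 relatives HSPA12A and HSPA12B, and the pseudogene HSP90AB4P.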

How the data were processed

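Total RNA of the 4 cultures was hybridized to 4 one-colour (Cy3) Agilent arrays on 1 slide. The authors deposited scanner output of Agilent Feature Extraction 10.7.1.1, whose processed signal is an intensity with the background subtracted within each array and no normalization between arrays, together with flags for control, outlier and background status. The authors also deposited a table of intensity values of the same arrays, used as an alternative. Precision is limited by the number of arrays, and 0 probes were saturated.

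Control spots and 16 probes flagged as outliers were dropped here, the processed signals of the 58185 other probes were converted to log2 and the mean over their spots was taken, and each array was set to its 75th percentile. Where a gene had several probes, that with the highest mean log2 signal over the 4 arrays was used. A ratio needs both signals well above background. Where only 1 was, a lower bound was taken against the dim signal itself or the floor of its array, whichever was higher, the floor being the lowest signal well above background there. A call is a ratio of at least 2. The study's rule adds a Z score of at least 2 without a formula, so it was an alternative here, with the SD taken in 10 bins of signal. Names follow the array design, and 77 of 78 matched a current RefSeq symbol and 1 a synonym, and probe positions are those of hg19. Motifs were searched in RefSeq windows on GRCh38.p14.

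Named genes are the measured HSP70, HSP90, small heat shock and inducible genes, members called or bounded at 2-fold, the 5 extreme members of each pair in each direction, and called pathway genes with HSF1 and BAG3. Members were taken by name and background status, but the family and the gene lists were chosen with earlier results of these data known. The calling step was tested on simulated data, built with noise but no variation between cultures. Its changes were larger than any called ratio of a member and were put only into genes with a processed signal above 100. It therefore does not show how well ratios near 2-fold or ratios from dim probes are called. Alternatives covered scaling, background correction, choice of probe, filters and thresholds. Work was done in Python 3.11.15 (numpy 2.4.6, pandas 2.3.3) and R 4.3.3 (limma 3.58.1).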

Additional observations from a re-analysis of the deposited data

How the results depend on the processing

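No paired analysis was possible because each condition had 1 array, and for the same reason no replicate could be left out. No called ratio of a named member changed direction under any alternative, while 103 of 1108 ratios of named members, all under 2-fold as reported, changed sign. Thresholds, filters and the Z score leave a ratio as it is, and the choice of probe cannot move a member with 1 measured probe. Those alternatives could therefore not have reversed such a call. The number of members detected was 52 where all 4 arrays had to be well above background.

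For AZA in MDS-L, 4 members were called higher and 1 lower as reported. Those higher numbered 1 with scaling to the median (HSPA2) and 1 with a signal of at least 100 (DNAJB2, so HSPA2 dropped out there). They numbered 2 with normexp and with the Z score (HSPA2 and DNAJB2), and 5 with spike-in probes, bounds counted or a ratio of 1.5. Of 15104 genes in all, 288 were higher with scaling to the median, 386 with the Z score and 851 with spike-in probes. The count was 309 of 15106 with normexp, 1155 of 17172 with bounds counted and 210 of 9607 at a signal of at least 100. Members lower numbered 16 with scaling to the median, 9 at a ratio of 1.5 and 4 with the probe of largest change. They numbered 2 with the mean of the probes and with bounds counted, and 0 with normexp, a signal of at least 100 or the Z score. Of 15104 genes in all, 3892 were lower with scaling to the median and 425 with the Z score. Of 15112, 1094 were lower with the probe of largest change and 841 with the mean of the probes. The count was 1036 of 17172 with bounds counted, 425 of 15106 with normexp and 479 of 9607 at a signal of at least 100. The members' median went to -0.73 and the difference between the lines to -0.70 with scaling to the median. For AZA in MDS-L/CDA, members higher numbered 1 with bounds counted and 4 at a ratio of 1.5. Members lower numbered 2 with the probe of largest change or bounds counted, 5 at a ratio of 1.5 and 0 at a signal of at least 100. Of 15393 genes in all, 389 were higher and 472 lower with bounds counted. Those lower were 525 of 14143 with the probe of largest change and 188 of 9042 at a signal of at least 100. Between the lines with vehicle, the members' median was -0.27 without scaling and -0.43 with scaling to the median. Members lower numbered 1 with scaling to the median and 2 with the probe of largest change, beside 1368 of 14510 and 414 of 14517 genes. Between the lines under AZA, members higher numbered 0 with quantile normalization, no scaling, spike-in probes, normexp and the authors' table. They numbered 1 with the mean of the probes, a signal of at least 100 and the Z score, 3 with the probe of largest change, and 12 at a ratio of 1.5. Of 14542 genes in all, 591 were higher with quantile normalization, 129 with no scaling, 580 with spike-in probes and 439 with the Z score. The count was 128 of 14541 with normexp, 563 of 14084 in the authors' table and 426 of 9124 at a signal of at least 100. Of 14550, 727 were higher with the mean of the probes and 940 with the probe of largest change. Members lower numbered 7 without scaling, 5 with bounds counted and at a ratio of 1.5, and 4 with the probe of largest change. They numbered 2 with normexp, 1 with the Z score and 0 at a signal of at least 100, and the members' median was -0.27 without scaling. Of 14542 genes in all, 1598 were lower without scaling and 323 with the Z score. The count was 875 of 16739 with bounds counted and 687 of 14550 with the probe of largest change. It was 385 of 14541 with normexp and 168 of 9124 at a signal of at least 100. The causes were not tested. Scaling to the median moved the median of all genes to -0.70 in MDS-L, and HSPA2, DNAJB4 and DNAJC24, called there from vehicle signals of 0.452 to 0.631, lay close to the lowest signals well above background, which limits the precision of their ratios.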
